A study of Oryza sativa with 14 samples.

Results

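TDC2, THT2 and ASMT3 are rice genes of tryptamine and phenolamide metabolism. TDC2 is a tryptophan decarboxylase, THT2 a hydroxycinnamoyl transferase and ASMT3 a methyltransferase. The 3 genes were taken by symbol or synonym from the gene table of the array, out of 17905 genes with a probe set of their own. Probe sets were selected on their mean signal over the 14 arrays, the highest of a gene being kept, and each of the 3 genes had 1 probe set. Those means were 1119 for TDC2, 1234 for THT2 and 103 for ASMT3.

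As background, tryptophan decarboxylase removes the carboxyl group of tryptophan to give tryptamine, which in rice is hydroxylated to serotonin by the cytochrome P450 tryptamine 5-hydroxylase. Hydroxycinnamoyl transferases of the THT kind join such amines to hydroxycinnamoyl-CoA, and the products are phenolamides, compounds known in rice from defence against pathogens and from cell walls. A further branch acetylates serotonin and then methylates it to melatonin, the step named in the symbol ASMT.

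RNA was measured in roots and shoots of etiolated seedlings on 14 one-colour arrays, 1 array for each combination of genotype, tissue and gas. The ethylene-response mutants mhz1 (roots only), mhz4 and mhz5 were set beside wild type (WT), and seedlings given 10 ppm ethylene for 8 h at 28 °C in the dark beside seedlings in air. Germination took 2 days at 37 °C without light, and for the ethylene treatment of 3 day old seedlings the water was lowered to 1.5 to 1.7 cm below the seeds. As background, the product of MHZ1 is a histidine kinase, MHZ4 is needed in the chloroplast to make abscisic acid, and MHZ5 is a carotenoid isomerase of the same route. The mark mb stands in the titles of the WT root arrays and in no others, so this mark and WT cannot be told apart in roots. The labels give no cultivar, allele or number of seedlings per array, and air seedlings have no stated duration, temperature or water level.

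With 1 array per group there is no spread between replicate seedlings anywhere in these data. Tests came from 1 limma fit to all arrays. It has 1 residual variance per probe set, shared by the comparisons of both tissues and moderated by limma over all probe sets. That variance holds differences in ethylene response between genotypes plus array noise, so unequal responses count as error. The residual SD was 0.20 for TDC2 and 0.50 for both THT2 and ASMT3, against a median of 0.12 over all probe sets. Each array was scaled to a trimmed mean of 500, and differences are log2(signal + 32), a scale that understates changes of dim probe sets. Adjusted p-values are limma's, by the Benjamini-Hochberg method over 23186 probe sets that reached a signal of 200 on at least 2 arrays. A call means an adjusted p below 0.05. The genes were proposed with earlier results of these data known, so their p-values describe this data set and are no independent support.

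All 3 genes passed the filter on low signals, but in different ways. TDC2 and THT2 exceeded 200 on all 14 arrays. ASMT3 exceeded it on 2 arrays, the mhz5 and WT roots in ethylene, and so entered the fit through those arrays alone.

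The tissue labels were checked with marker genes. Summed over 6 shoot markers (Rubisco, chlorophyll-binding and protochlorophyllide reductase genes), signals were 287 to 2094 in roots and 78715 to 118990 in shoots. Summed over 12 root markers (silicon, ammonium and phosphate transporters) they were 29310 to 48827 in roots and 5468 to 8460 in shoots. Most of the root sum came from NIP2-1 (17424 to 28208) and Lsi2 (3825 to 12524). Of 7 fitted root markers, 5 were called higher in roots than in shoots and 1 lower. Over all probe sets 49.9% were called higher and 32.4% lower in roots. Lsi2 and the ammonium transporter gene reached 200 on root arrays alone, so their tissue differences are a description. Nothing is read from the count of these calls. PT1 read 1173 to 2168 in roots and 1722 to 3997 in shoots, and PT8 overlapped between tissues. PT3, PT6, PT7, PT11 and PT12 did not reach 200 on any array. The mhz4 root ethylene array had the 2094, and the next highest root array had 544. Seed markers (3 genes) summed to at most 106 in roots and 128 in shoots. MHZ4 itself read 186 to 239 on the mhz4 arrays and 253 to 657 on the other arrays. The MHZ1 and MHZ5 loci were not analysed here.

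TDC2 and THT2 were higher in mhz4 and mhz5 roots than in WT roots. In roots TDC2 read 1928 in ethylene and 1647 in air in mhz4, and 1820 and 1482 in the same gases in mhz5. It read 1297 in ethylene and 865 in air in mhz1, against 733 in ethylene and 396 in air in WT. The 4 arrays of mhz4 and mhz5 roots thus lay above both WT root arrays, as did those of 18.1% of all tested probe sets, and WT in air was the lowest of all 14 arrays.

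**Figure D1:**
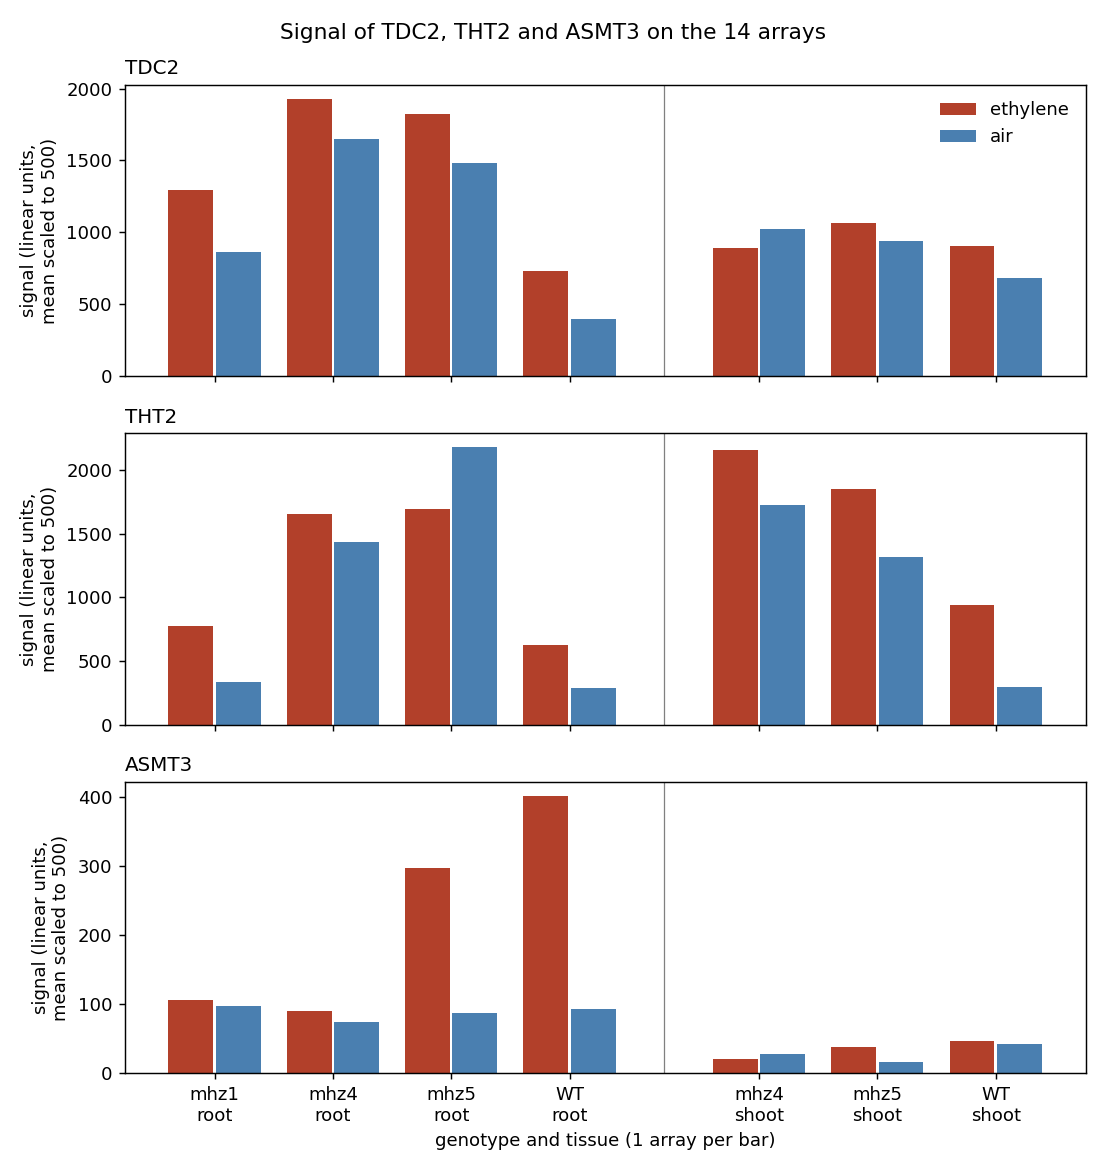
Signal of TDC2, THT2 and ASMT3 (y axis, linear units after scaling each array to a trimmed mean of 500) by genotype and tissue (x axis), with ethylene bars left of air bars and 1 array per bar. TDC2 and THT2 stood at 1436 or more in every mhz4 and mhz5 root array and at 733 or less in WT roots, and ASMT3 exceeded 200 in 2 root arrays.

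The fitted TDC2 difference between mhz4 and WT roots was 1.67 (SE 0.17, adjusted p = 0.00141), a 3.17-fold higher level on the fitted scale. Between mhz5 and WT roots it was 1.55 (SE 0.17, adjusted p = 0.00231), or 2.93-fold. Both mutants are set against the same pair of WT arrays, so these are not independent results. In the background, 6.69% of all tested probe sets were called higher in mhz4 roots and 4.35% in mhz5 roots. In mhz4 the single-gas differences were 1.36 in ethylene and 1.97 in air. In mhz5 they were 1.27 in ethylene and 1.82 in air. Both TDC2 calls held in all 26 alternatives, with adjusted p at most 0.0177 for mhz4 and 0.0200 for mhz5.

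In mhz1 roots TDC2 was 0.93 above WT (SE 0.17, adjusted p = 0.0477), against a background of 0.824% called higher. That call held in 5 of 26 alternatives. It was lost when any 1 of the 14 arrays was left out, with adjusted p of 0.0532 to 0.357. The difference between mhz1 and the other mutants was not tested.

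THT2 was also high in mhz4 and mhz5. In roots it read 1655 in ethylene and 1436 in air in mhz4, and 1690 in ethylene and 2179 in air in mhz5. It read 778 in ethylene and 333 in air in mhz1, against 629 in ethylene and 286 in air in WT. The mhz4 and mhz5 arrays did not overlap with those of WT, the order that 18.1% of all probe sets had, and the mhz1 arrays lay close to WT.

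In the fit THT2 was 1.78 higher in mhz4 roots (SE 0.39, adjusted p = 0.0218) and 2.09 higher in mhz5 roots (SE 0.39, adjusted p = 0.0161) than in WT roots. On the fitted scale these were 3.43-fold and 4.26-fold. In mhz1 roots the difference was 0.25 with a 95% interval of -0.65 to 1.15 (adjusted p = 0.809), an interval that includes 0. The mhz4 call was lost without the WT root air array (adjusted p = 0.170), the mhz4 root air array (0.160) or the mhz4 root ethylene array (0.0658). The mhz5 call was lost without the WT root air array (0.134) or the mhz5 root air array (0.107). The mhz4 root ethylene array also had the highest summed shoot markers of the root arrays, and without it the THT2 difference was 1.99. Of 5 fitted shoot markers, CAB2R was called higher in mhz4 roots (1.29, adjusted p = 0.0362) and none in mhz5 roots. Of 7 fitted root markers, Lsi2 (1.10) and PT8 (0.80) were called higher and PT4 (-1.67) lower in mhz4 roots, and PT8 (0.70) higher in mhz5 roots. The part of these markers in the root results was not tested.

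THT2 was higher in the shoots of both mutants as well, and TDC2 was not called there. In shoots THT2 read 2160 in ethylene and 1725 in air in mhz4, and 1847 in ethylene and 1318 in air in mhz5, against 940 in ethylene and 294 in air in WT. All 4 mutant shoot arrays lay above both WT shoot arrays, as they did for 20.7% of all probe sets. Over both tissues, the 8 arrays of mhz4 and mhz5 held the 8 highest THT2 signals of the 14, an order noted after the values were seen and shared by 0.129% of all probe sets. The steps between neighbours in that order could not be tested with 1 array each. The fitted difference between mhz4 and WT was 1.80 (SE 0.39, adjusted p = 0.0133). Between mhz5 and WT it was 1.50 (SE 0.39, adjusted p = 0.0346). In shoots 12.6% of tested probe sets were called higher in mhz4 and 9.35% in mhz5, a high background. Without the WT shoot air array the differences were 1.21 (adjusted p = 0.155) and 0.91 (adjusted p = 0.284). Leaving out mhz4 in air (0.137), mhz5 in air (0.220) or mhz5 in ethylene (0.0926) also ended that mutant's call. Of 5 fitted shoot markers, RCABP89 (2.04) and PORB (1.19) were called higher in mhz4 shoots and RCABP89 (0.90) in mhz5 shoots. Of 7 fitted root markers, 2 were called higher in mhz4 shoots and 1 in mhz5 shoots. The part of these markers in the shoot results was not tested.

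TDC2 in shoots read 890 in ethylene and 1021 in air in mhz4, and 1065 in ethylene and 940 in air in mhz5, against 902 in ethylene and 681 in air in WT. In ethylene the WT array lay between the mutants. The mhz4 difference was 0.27 (95% interval -0.12 to 0.66, adjusted p = 0.273). The mhz5 difference was 0.34 (-0.05 to 0.73, adjusted p = 0.194).

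The difference between tissues was tested as a contrast of the same fit. The mhz4 effect on TDC2 was 1.39 larger in roots than in shoots (SE 0.24, adjusted p = 0.00742), and the mhz5 effect 1.21 larger (SE 0.24, adjusted p = 0.0224). In the background 12.3% of probe sets had a higher mhz4 effect in roots and 5.54% a higher mhz5 effect. The mhz4 contrast held in all 23 alternatives. The mhz5 contrast was lost without the WT root air (adjusted p = 0.0741), mhz5 root air (0.0645), mhz5 shoot air (0.0896) or mhz5 shoot ethylene array (0.0560). For THT2 the same contrasts were -0.02 (95% interval -1.29 to 1.25) and 0.59 (-0.68 to 1.86), and neither was called.

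**Figure D2:**
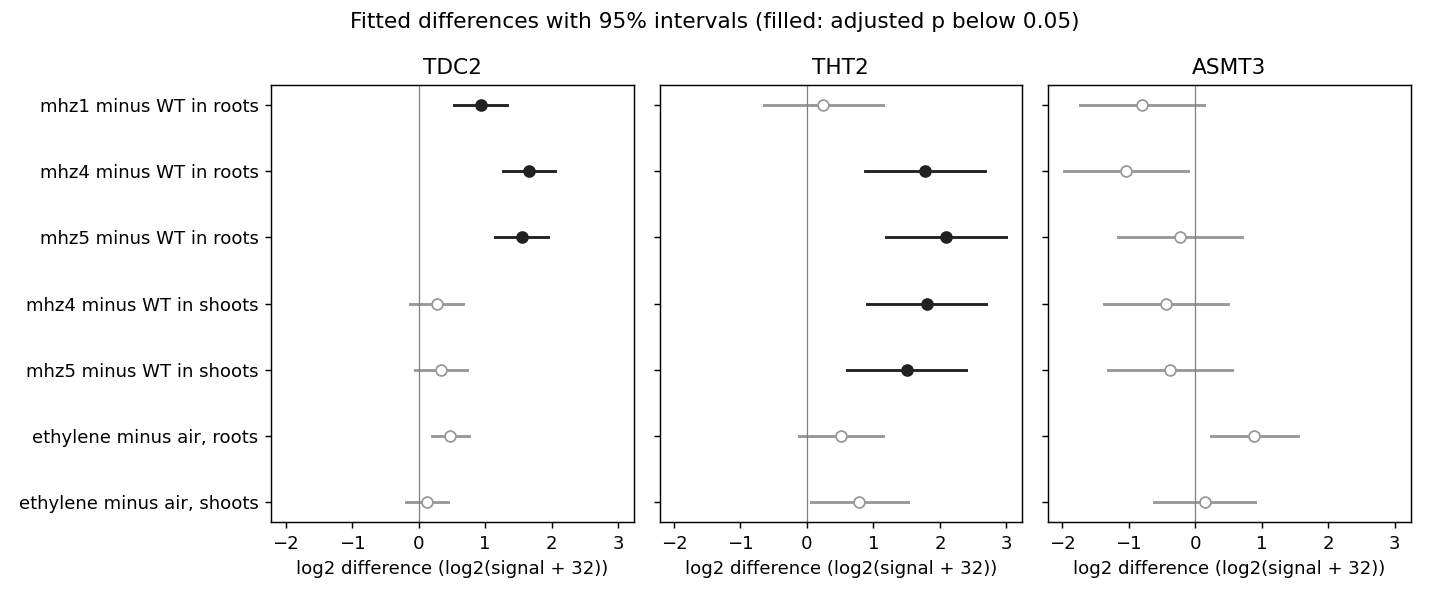
Fitted log2 differences (x axis) of the 3 genes for 7 comparisons (y axis), with 95% intervals as lines and calls as filled points. The ASMT3 root comparisons are a description only, since they draw on the arrays that brought it past the filter. TDC2 was called in mutant roots and not in shoots, with 1.67 and 1.55 for mhz4 and mhz5 roots, while THT2 was called in both tissues of mhz4 and mhz5.

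ASMT3 was a dim probe set in most samples. In roots it read 89.4 in ethylene and 73.4 in air in mhz4, and 297 in ethylene and 87.6 in air in mhz5. It read 105 in ethylene and 97.3 in air in mhz1, against 401 in ethylene and 92.5 in air in WT. The air arrays of the 4 genotypes lay within 73.4 to 97.3, and in ethylene WT and mhz5 were high while mhz4 and mhz1 were not. In shoots ASMT3 read 20.7 in ethylene and 27.4 in air in mhz4, and 38.1 in ethylene and 16.8 in air in mhz5, against 46.0 in ethylene and 42.2 in air in WT. All shoot arrays lay below the lowest root array, as they did for 32.6% of all probe sets.

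In roots the ASMT3 differences from WT were -0.80 in mhz1, -1.04 in mhz4 and -0.23 in mhz5. They draw on ethylene arrays through which ASMT3 passed the filter, so they are given without a test. In shoots they were -0.44 in mhz4 (adjusted p = 0.450) and -0.38 in mhz5 (adjusted p = 0.538), and neither was called. In ethylene alone, the root differences from WT were -1.66 in mhz1, -1.84 in mhz4 and -0.40 in mhz5, as single pairs of arrays. The WT array of these pairs is one of those through which ASMT3 passed the filter, so they are a description only.

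Ethylene itself gave no call for TDC2 or THT2 when averaged over genotypes. In roots the mean differences were 0.48 for TDC2 (SE 0.12, adjusted p = 0.0665) and 0.51 for THT2 (SE 0.28, adjusted p = 0.430). That of ASMT3 was 0.89, given without a test because the arrays that brought it past the filter are root arrays in ethylene. Over all probe sets 2.32% were called higher and 2.59% lower with ethylene in roots. TDC2 read higher in ethylene in all 4 root genotypes, and THT2 in 3 of the 4, mhz5 being the exception. ASMT3 also read higher in all 4, but its WT and mhz5 ethylene arrays brought it past the filter, so nothing is read from that. How many of all probe sets had such an order was not counted.

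Genotype by genotype, the single-pair ethylene differences in roots were unequal. For THT2 they were 1.15 in mhz1, 0.20 in mhz4, -0.36 in mhz5 and 1.06 in WT. For TDC2 they were 0.57 in mhz1, 0.22 in mhz4, 0.29 in mhz5 and 0.84 in WT. For ASMT3 they were 0.09 in mhz1, 0.20 in mhz4, 1.46 in mhz5 and 1.80 in WT. THT2 was thus at least 2-fold higher with ethylene in mhz1 and WT, where it was low in air. The ASMT3 values in mhz5 and WT come from the arrays that brought it past the filter, and nothing is read from their size. The shares of compared probe sets at least 2-fold higher were 1.05% in mhz1, 1.14% in mhz4, 0.854% in mhz5 and 1.56% in WT. Each response rests on 1 pair of arrays, and differences between genotypes were not tested.

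**Figure D3:**
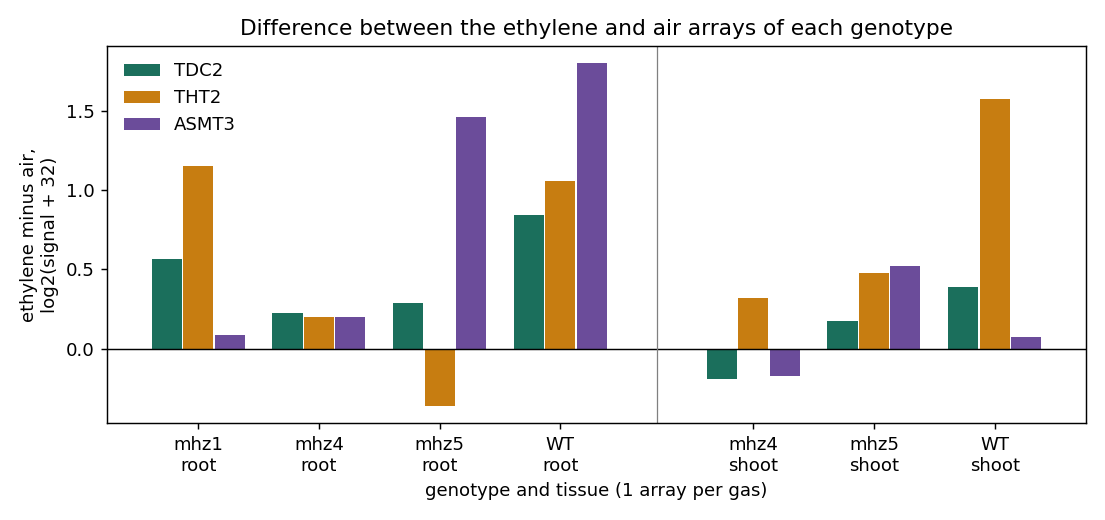
Difference between the ethylene and the air array (y axis, log2(signal + 32)) for each genotype and tissue (x axis), coloured by gene, with 1 array per gas. The THT2 bars for mhz1 and WT roots reach 1.15 and 1.06, while those of mhz4 and mhz5 roots are 0.20 and -0.36.

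In shoots the mean ethylene differences were 0.12 for TDC2 (adjusted p = 0.723), 0.79 for THT2 (adjusted p = 0.268) and 0.14 for ASMT3 (adjusted p = 0.879). In shoots 0.802% of probe sets were called higher and 1.41% lower with ethylene. THT2 read higher in ethylene in all 3 shoot genotypes, by 0.32 in mhz4, 0.48 in mhz5 and 1.57 in WT. TDC2 differed by -0.19 in mhz4, 0.18 in mhz5 and 0.39 in WT. The ethylene effect was not called different between roots and shoots for TDC2 (0.36, adjusted p = 0.601) or THT2 (-0.28, adjusted p = 0.912), and 0.556% of all probe sets were. For ASMT3 this difference was 0.75, given without a test because of the root arrays that brought it past the filter.

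Between tissues, TDC2 was called and THT2 was not. ASMT3 entered the fit through root arrays alone, so its tissue difference was not tested and stands as the signals above. Averaged over mhz4, mhz5, WT and both gases TDC2 was 0.36 higher in roots than in shoots (SE 0.10, adjusted p = 0.00893), and THT2 differed by -0.11 (adjusted p = 0.671). In that comparison 49.9% of all probe sets were called higher and 32.4% lower in roots, and their median difference was 0.16, so a call there is common. The TDC2 average joined genotypes that ran opposite ways: the mhz4 and mhz5 root arrays (1482 to 1928) exceeded the shoot arrays of those mutants (890 to 1065), but WT roots (396 and 733) included the lowest array and overlapped with WT shoots (681 and 902). RNA came from whole roots or shoots, so a lower signal can mean fewer expressing cells or less RNA per cell, which cannot be told apart.

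As a description, TDC2 and THT2 went together across arrays, and ASMT3 had r near 0 with both in roots. Pearson's r between TDC2 and THT2 was 0.89 over 8 root arrays and 0.88 over 6 shoot arrays, with Spearman's rho of 0.81 and 0.43. Between TDC2 and ASMT3 r was -0.09 in roots and -0.29 in shoots, and between THT2 and ASMT3 it was -0.01 in roots and -0.55 in shoots. The arrays share genotypes and gases, so they are not independent points.

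Among 14588 fitted genes, those most like each of the 3 genes over the 14 arrays were named by Pearson's r of log2 signal. The highest r among so many genes is high by selection, so the values below, also those within a tissue, are a description only. For TDC2 they were LOC4343083 (0.93), LOC4337554 (0.92) and LOC4351267 (0.91). LOC4343083 lies on chromosome 7 as TDC2 does, with 4 annotated genes between them. Its r with TDC2 was 0.97 over the root arrays and 0.15 over the shoot arrays. For THT2 they were LOC4332548 (0.93), LOC4337194 (0.92) and LOC4345676 (0.91). The r of LOC4332548 with THT2 was 0.94 in roots and 0.997 in shoots. For ASMT3 they were LOC4327068 (0.91), LOC4324631 (0.91) and STLP3 (LOC4336343, 0.90). Within roots their r was 0.85, 0.91 and 0.78, and within shoots 0.0081, -0.0060 and 0.56, so for the first pair of genes the likeness was not seen within shoots.

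**Figure D4:**
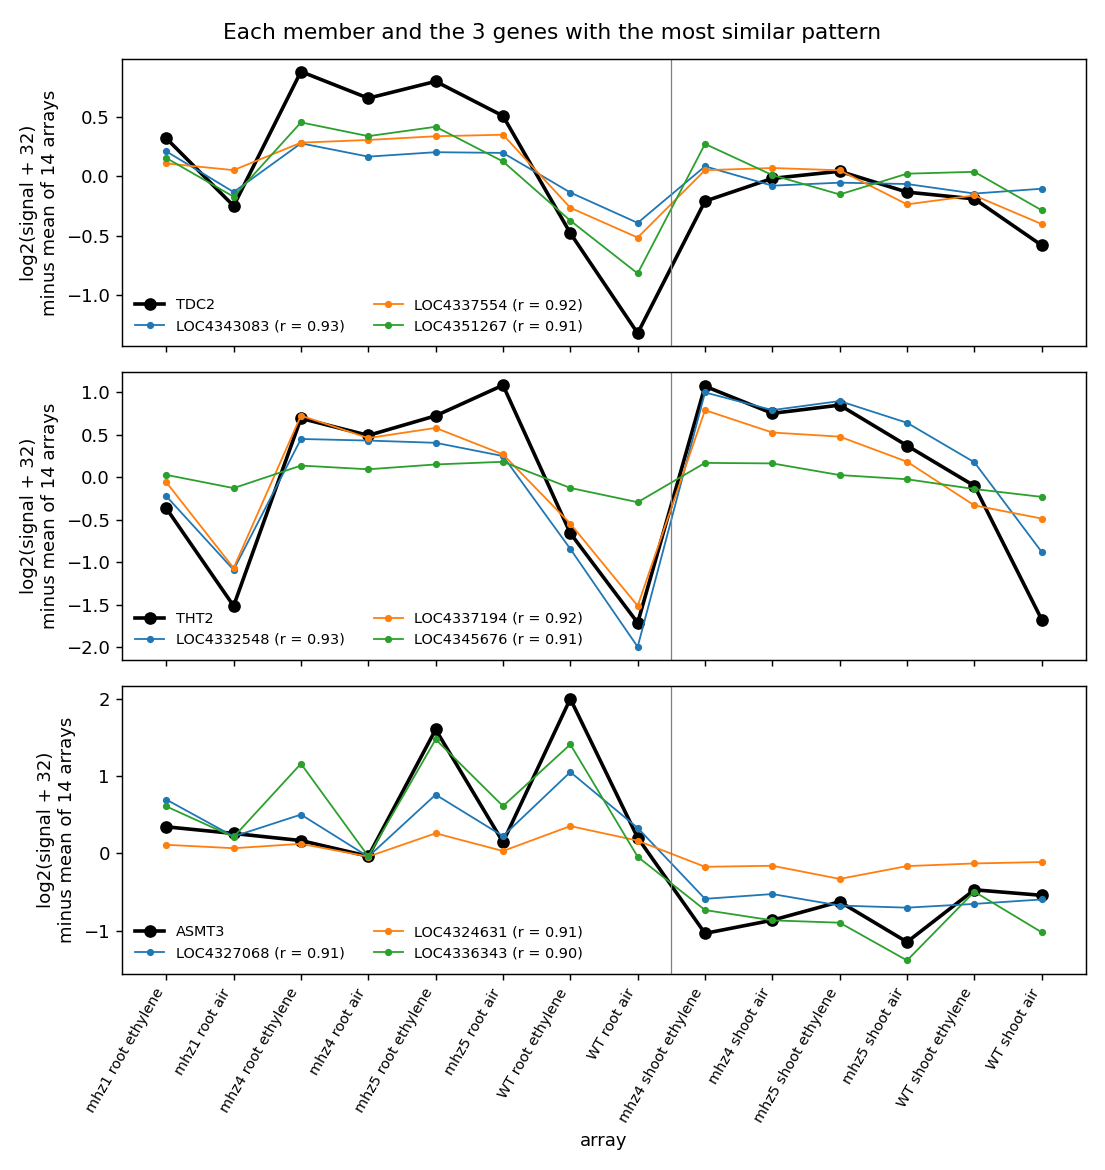
Centred log2(signal + 32) of each gene (black) and of the 3 genes with the highest Pearson's r with it (colours) on the 14 arrays (x axis, roots left of the grey line). TDC2 is lowest in WT root air and high in mhz4 and mhz5 roots, and ASMT3 peaks in WT and mhz5 roots in ethylene. Those peaks are the arrays that brought ASMT3 past the filter, so they are a description only.

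Anthranilate synthase makes the first committed intermediate of tryptophan, and its subunit genes ASA1, ASA2, ASB1 and ASB2 were all measured. None of the 4 was called in any comparison of a mutant with WT or of ethylene with air. Of all 23186 probe sets, 289 were called either way in mhz1 roots, 3443 in mhz4 roots and 2219 in mhz5 roots. In shoots 6108 were called in mhz4 and 4165 in mhz5, and with ethylene 1139 in roots and 512 in shoots. With 4 genes nothing is read from the count of 0. Their median difference was -0.12 in mhz4 roots and 0.18 in mhz5 roots, against -0.01 and -0.03 over all probe sets. ASA2 read 255 in ethylene and 758 in air in mhz5 roots, against 335 in ethylene and 419 in air in WT roots. ASB1 read 890 in ethylene and 1947 in air in mhz5 roots, against 948 in ethylene and 1236 in air in WT roots. In roots the mhz5 air array was the highest for both genes. ASA1 read 319 to 428 in roots and 466 to 660 in shoots, and ASB2 1658 to 2351 in roots and 1787 to 2313 in shoots. Between tissues ASA1 (-0.63), ASA2 (-0.86) and ASB1 (-0.66) were called lower in roots than in shoots, as were 32.4% of all probe sets. ASB2 was not called.

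Downstream of tryptamine, T5H (CYP71P1), the tryptamine 5-hydroxylase, was called lower with ethylene in roots, where TDC2 had no call. In roots it read 389 in ethylene and 813 in air in mhz1, 221 and 300 in mhz4, 218 and 1157 in mhz5, and 356 and 681 in WT. It was lower in ethylene in all 4 genotypes, with a mean of -1.13 (SE 0.25, adjusted p = 0.0425). The call held in 11 of 28 alternatives, with adjusted p up to 0.138. T5H did not differ from WT by a called amount in any mutant, with differences of -0.86 for mhz4 roots (adjusted p = 0.143) and 0.05 for mhz5 roots (adjusted p = 0.947).

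The serotonin N-acetyltransferase genes of the melatonin branch differed in shoots. SNAT2 read 897 in ethylene and 1520 in air in mhz4 shoots, and 726 and 1111 in mhz5 shoots, against 482 and 553 in WT shoots. All mutant shoot arrays were above both WT arrays, as for 20.7% of all probe sets. Between mhz4 and WT shoots SNAT2 differed by 1.13 (SE 0.14, adjusted p = 0.00179). Between mhz5 and WT shoots it differed by 0.76 (SE 0.14, adjusted p = 0.0120). The mhz5 call was lost without the WT shoot air or either mhz5 shoot array, with adjusted p up to 0.101. SNAT1 rose by 0.57 in mhz4 shoots (adjusted p = 0.0224) and differed by 0.32 in mhz5 shoots (adjusted p = 0.148). The SNAT1 call was lost in 4 of 26 alternatives, which included the fit to shoot arrays alone. Neither gene was called in mutant roots. The mhz4 effect was lower in roots than in shoots for SNAT1 (-0.87, adjusted p = 0.0191) and SNAT2 (-0.70, adjusted p = 0.0388), the opposite order to TDC2, and these calls held in 17 of 23 and 8 of 22 alternatives. That contrast was called either way for 5583 of 23186 probe sets. Between tissues T5H (-1.39), SNAT1 (-2.14) and SNAT2 (-1.91) were all called lower in roots, as were 32.4% of all probe sets. ASMT1, the other methyltransferase of this branch on the array, exceeded 200 on 1 array and was not tested. It read 20.5 to 27.1 in roots and 52.9 to 265 in shoots, so it lay higher in shoots where ASMT3 lay lower.

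None of 3 other fitted acyltransferase genes of phenolamide synthesis was called against WT or with ethylene. Over all 23186 probe sets the calls in these comparisons ran from 289 in mhz1 roots to 6108 in mhz4 shoots. With 3 genes nothing is read from the count. TBT2, a tryptamine benzoyl transferase gene, read 29.4 to 59.8 in roots and 200 to 791 in shoots. In shoots it differed by 0.68 between mhz4 and WT (adjusted p = 0.0852) and by 0.47 between mhz5 and WT (adjusted p = 0.231). The putrescine hydroxycinnamoyl transferase genes PHT1 and PHT3 differed by 0.53 and -0.16 in mhz4 roots (adjusted p = 0.0758 and 0.630) and by 0.40 and 0.13 in mhz5 roots (adjusted p = 0.187 and 0.714). PHT3 read 479 to 946 in roots and 67.1 to 161 in shoots, the reverse of TBT2. TBT2 passed the filter through shoot arrays alone and PHT3 through root arrays alone, so their tissue differences are a description. PHT1 was called lower in roots than in shoots (-0.48). THT1, which lies near THT2 on chromosome 10 with 1 annotated gene between, and TBT1 and AHT1 were not analysed here. Whether transcripts of a close paralog add to the THT2 signal was not tested.

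**Figure D5:**
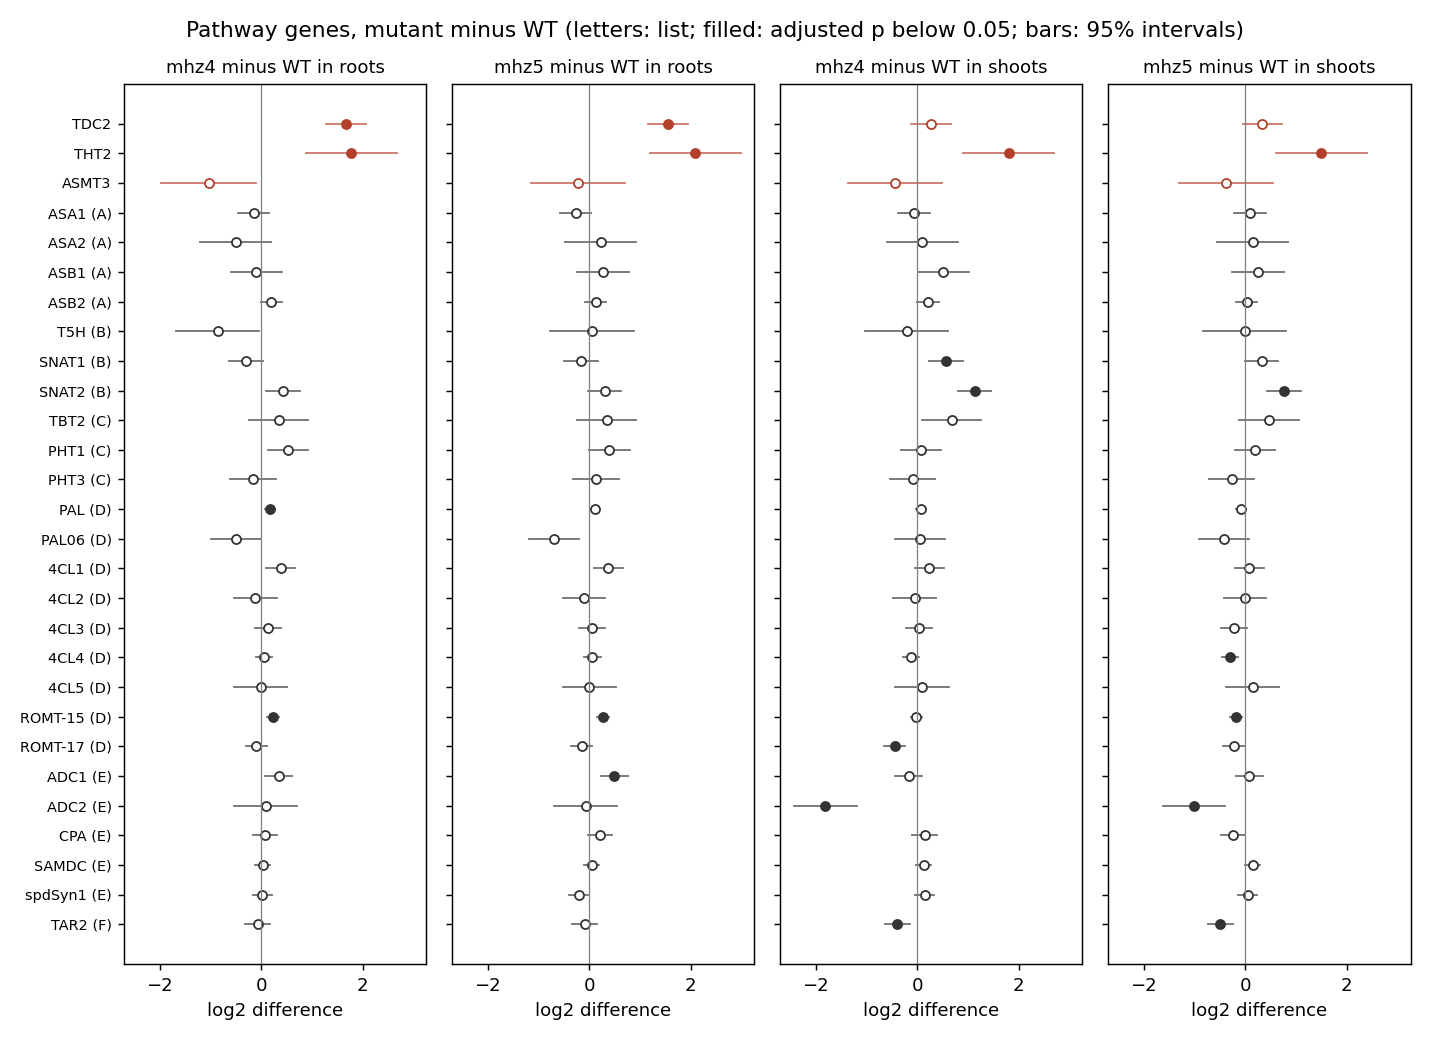
Log2 differences from WT (x axis, lines are 95% intervals, filled points are calls) of the 3 genes (red) and of 25 pathway genes (y axis) in mhz4 and mhz5 roots and shoots. Letters give the list, from tryptophan supply (A) through tryptamine to melatonin (B), acyltransferases (C), hydroxycinnamoyl-CoA (D) and amines (E) to indole acetic acid (F). In both root panels TDC2 and THT2 lie furthest to the right.

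Hydroxycinnamoyl-CoA is the other substrate of THT. Of 9 genes of its supply, PAL, the phenylalanine ammonia-lyase gene (0.17, adjusted p = 0.0357) and the caffeoyl-CoA methyltransferase gene ROMT-15 (0.23, adjusted p = 0.0217) rose in mhz4 roots. In mhz5 roots ROMT-15 alone rose (0.27, adjusted p = 0.0172). The background of higher calls was 6.69% in mhz4 roots and 4.35% in mhz5 roots, and with 9 genes nothing is read from these counts. All 3 calls were lost without the WT root air array. They were also lost when eBayes was run without the trend. Under quantile normalization PAL (0.12, adjusted p = 0.167) and ROMT-15 (0.18, adjusted p = 0.0546) were not called in mhz4 roots, while ROMT-15 kept its call in mhz5 roots. Other probe sets of PAL were called in mhz4 roots with 0.66 (adjusted p = 0.0140) and 0.31 (adjusted p = 0.0259), and 2 more differed by 0.23 and 0.14 with no call. In mhz4 shoots ROMT-17 fell by 0.45 (adjusted p = 0.0110), but its other 3 fitted probe sets were not called (-0.99 to -0.29). The backgrounds of lower calls in shoots were 13.7% in mhz4 and 8.61% in mhz5. In mhz5 shoots 4CL4 (-0.30) and ROMT-15 (-0.17) fell, the second with a call that held in 1 of 26 alternatives. With ethylene the ligase gene 4CL2 fell by 1.06 in shoots (adjusted p = 0.0125), a call lost without mhz5 arrays or with shoot arrays fitted alone.

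Of 5 genes of amine supply, 1 was called lower in the shoots of both mutants, the arginine decarboxylase gene ADC2. Over all probe sets 13.7% were called lower in mhz4 shoots and 8.61% in mhz5 shoots, and with 5 genes nothing is read from the count. It fell by 1.81 in mhz4 (adjusted p = 0.00315) and by 1.01 in mhz5 (adjusted p = 0.0367). It read 97.3 in ethylene and 109 in air in mhz4 shoots, 208 and 199 in mhz5 shoots, and 271 and 709 in WT shoots. The mhz4 call was lost without the mhz4 shoot air array (adjusted p = 0.0511), and the mhz5 call in 9 of 25 alternatives. In mhz4 and mhz5 roots ADC2 was not called (0.09 and -0.07). With ethylene it fell by 3.27 in roots (SE 0.19, adjusted p = 0.000109), a call that held in 27 of 27 alternatives. ADC1 rose by 0.49 in mhz5 roots (adjusted p = 0.0343), a call that held in 18 of 26 alternatives, and its other probe set by 0.78 (adjusted p = 0.00632). The tryptophan aminotransferase gene TAR2, which draws on tryptophan for indole acetic acid, fell by 0.40 in mhz4 shoots (adjusted p = 0.0292) and by 0.49 in mhz5 shoots (adjusted p = 0.0194). Both TAR2 calls were lost without the WT shoot air array and with shoot arrays fitted alone. In roots TAR2 was not called in any mutant.

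Most of these supply genes were also called between tissues, where 49.9% of all probe sets were called higher and 32.4% lower in roots. Nothing is read from the counts of calls. Of the 9 hydroxycinnamoyl-CoA genes, 4CL1 (1.74), ROMT-17 (0.82), 4CL5 (0.42) and ROMT-15 (0.20) were higher in roots and PAL06 (-0.82) lower. 4CL2 passed the filter through shoot arrays alone and read 13.7 to 21.9 in roots, so no tissue difference is given for it. Of the amine genes, ADC2 (2.22), ADC1 (0.91), spdSyn1 (0.88) and CPA (0.70) were higher in roots, as was TAR2 (1.51). The mutant effect in roots minus that in shoots was positive for ADC2 in mhz4 (1.90, adjusted p = 0.0121). There ADC2 was lower than WT in shoots (-1.81) and had no call in roots, so the change lay in shoots. The same contrast was positive for ROMT-15 in mhz4 (0.25, adjusted p = 0.0406) and mhz5 (0.44, adjusted p = 0.0133). The ADC2 call held in 20 of 22 alternatives, and the ROMT-15 calls in 10 of 23 for mhz4 (0.14, adjusted p = 0.198 under quantile normalization) and 20 of 23 for mhz5. The ethylene effect on ADC2 was lower in roots than in shoots (-2.82, adjusted p = 0.00837), a call that held in 23 of 26 alternatives.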

How the data were processed

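RNA of 14 rice samples was hybridised to one-colour Affymetrix arrays after labelling 6 µg of total RNA with biotin, per the labels' protocols. The authors deposited 1 linear intensity per probe set and array. Per the submitters' processing notes the tool was MAS5, with settings not stated. The deposited arrays had nearly the same distribution (medians 16.3 to 17.1, median coefficient of variation 2.43% over ranks), and detection calls were not used here.

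From 57381 probe sets, 123 controls were left out. Scaling factors of 3.87 to 4.10 brought each array to a mean of 500 without the lowest and highest 2% of values. Names came from the platform annotation and the RefSeq gene table of assembly ASM3414082v1 (names and gene order only). In it 22436 probe sets had 1 gene, 95 several and 34727 none, and probe sets with several genes were left unnamed. Within a gene the probe set with the highest mean signal was used. Pathway genes that these tables do not name, TDC1, TDC3 and tryptophan synthase among them, were not analysed here.

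limma 3.58.1 (R 4.3.3) fitted log2(signal + 32) with 7 genotype-by-tissue terms and 1 ethylene term per tissue, with a trend in eBayes and 5 residual degrees of freedom. The fit was tested on simulated data. The number of arrays limits the precision. The genes, lists and tests were chosen with earlier results of these data known. The text names the 3 genes, all measured genes of the lists on tryptophan, tryptamine and acyltransferases, genes of the other lists called for a genotype or gas, and per gene the 3 with the highest correlation. Alternatives covered the pseudocount (8, 100), quantile normalization, the filter, the variance trend, arrays of 1 tissue, and leaving out each array or each pair of arrays.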

Additional observations from a re-analysis of the deposited data

Results flagged for a closer look

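The mhz4 effect on TDC2 differed between tissues by 1.39 on the log2 scale (roots minus shoots, 1.67 in roots and 0.27 in shoots), by a contrast of the limma fit. The mhz5 effect on TDC2 differed in the same direction by 1.21 (1.55 in roots and 0.34 in shoots). Both contrasts use the same WT arrays, and the mark on the WT root titles cannot be told apart from genotype.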

How the results depend on the processing

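Directions of the called differences of TDC2 and THT2 held in every alternative that was run. TDC2 in mhz1 roots was 0.93 without the trend (adjusted p = 0.0647) and with root arrays alone (adjusted p = 0.0891), and 0.69 to 1.17 when arrays were left out. Without arrays, THT2 ranged over 1.42 to 2.14 (mhz4 roots), 1.51 to 2.67 (mhz5 roots), 1.21 to 2.39 (mhz4 shoots) and 0.91 to 2.09 (mhz5 shoots), and the mhz5 effect on TDC2 in roots minus shoots over 0.97 to 1.45. Signs turned only in uncalled values. For ASMT3 the mhz5 effect in roots minus shoots was -0.0047 with a pseudocount of 100, and for THT2 the mhz4 effect in roots minus shoots was 0.059 under quantile normalization. Leaving out arrays gave -0.18 to 0.67 for THT2 in mhz1 roots, -0.30 to 0.088 for THT2 and root minus shoot, -0.51 to 0.11 for THT2 and the ethylene effect in roots minus shoots, -0.61 to 0.57 for THT2 and the mhz4 effect in roots minus shoots, -0.46 to 0.53 for ASMT3 and the mhz5 effect in roots minus shoots, -0.84 to 0.15 for ASMT3 in mhz5 roots, -0.0081 to 0.28 for TDC2 with ethylene in shoots and -0.049 to 0.30 for ASMT3 with ethylene in shoots.

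Counts of called probe sets moved more. With a signal of 200 required on all 14 arrays, which leaves fewer probe sets, 691 were called for ethylene in roots (1139 in the fit as reported), 305 in shoots (512), 187 for mhz1 (289), 12431 for root minus shoot (19064) and 66 for the difference of ethylene effects (129). With 1 tissue fitted, mhz1 gave 110, ethylene in shoots 200 (512), mhz4 shoots 3489 (6108) and mhz5 shoots 1942 (4165). Leaving out arrays gave 499 to 1179 for ethylene in roots, 131 to 786 in shoots, 26 to 288 for mhz1, 726 to 3742 for mhz4 roots (3443), 628 to 2485 for mhz5 roots (2219), 1401 to 6251 for mhz4 shoots, 732 to 4376 for mhz5 shoots, 25 to 195 for the difference of ethylene effects, 2175 to 6400 for the mhz4 effect in roots minus shoots (5583) and 482 to 3669 for the mhz5 effect (2518). The cause was not tested. Replicates could not be paired or blocked, because each group holds 1 array and every title carries the same replicate number. The fit itself compares the gases within each genotype. Other probe sets of the 3 genes could not be tried, since each has 1, and ASMT3 has no value with the filter on all arrays.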
